A study of Mus musculus with 9 samples.

Results

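The long 5′ fragments of nuclear valine tRNAs were followed after laser injury of the back of the mouse eye. They were the fragments of the classes tRF-5c and tiRNA-5 whose name carries Val, which start at the first base of the mature tRNA and end near the anticodon. There were 15 of them among the 200 fragments of the deposited table, which also held 87 fragments of the same classes from other nuclear tRNAs. The tissue was the complex of RPE (retinal pigment epithelium, which nourishes the photoreceptors), choroid (the vascular bed under it) and sclera of C57BL/6 mice. Laser burns through Bruch's membrane, which separates choroid and RPE, were made at 6 to 8 weeks of age and lead to choroidal neovascularization, the growth of choroidal vessels through the break. There were 3 complexes taken at day 3 after the laser, 3 taken at day 7 and 3 controls from untreated mice. The table holds tRNA fragments only, so the labelled tissue was not checked against marker genes.

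Valine tRNAs carry valine to the ribosome and are divided by anticodon into the isoacceptors AAC, CAC and TAC. A tRNA can be cut in its anticodon loop, classically by the ribonuclease angiogenin under stress, which leaves a 5′ piece, named tiRNA-5, and a 3′ piece. Somewhat shorter 5′ pieces are named tRF-5c. Valine tRNAs are among those whose 5′ pieces have been described in stressed cells.

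The 15 fragments were 29 nt (2 fragments), 31 nt (3), 32 nt (6) and 34 nt (4) long, and carried 10 parent names. A name gives the first and last base and the parent tRNA; a suffix such as M2 marks a sequence that the deposited alignments place on more than 1 tRNA. The anticodon begins at base 34. The 32-nt fragments therefore end 1 base before the anticodon, the 31-nt fragments 2 bases and the 29-nt fragments 4 bases before it, while the 34-nt fragments include its first base. All 6 sequences of 32 nt are shown because they differ from each other at few bases. Capitals mark the bases that differ from the most abundant of them, AAC-1-M2, which has none.
tRF-1:32-Val-AAC-1-M2: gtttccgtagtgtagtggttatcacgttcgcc
tRF-1:32-Val-AAC-2-M3: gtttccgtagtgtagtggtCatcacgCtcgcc
tRF-1:32-Val-CAC-1: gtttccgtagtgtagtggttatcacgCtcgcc
tRF-1:32-Val-AAC-5: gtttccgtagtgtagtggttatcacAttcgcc
tRF-1:32-Val-CAC-4: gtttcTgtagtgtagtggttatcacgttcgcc
tRF-1:32-Val-AAC-4: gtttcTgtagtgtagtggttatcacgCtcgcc

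Counted from 1 at the 5′ end, CAC-1 differs from AAC-1-M2 by T27C, AAC-5 by G26A and CAC-4 by C6T. AAC-2-M3 differs by T20C and T27C, and AAC-4 by C6T and T27C. In the 4 fragments of 34 nt, shown next because only they reach the anticodon, the capital marks the first anticodon base.
tiRNA-1:34-Val-AAC-1: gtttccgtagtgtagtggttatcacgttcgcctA
tiRNA-1:34-Val-CAC-2: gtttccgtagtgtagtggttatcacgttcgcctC
tiRNA-1:34-Val-CAC-3: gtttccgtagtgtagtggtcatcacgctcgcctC
tiRNA-1:34-Val-TAC-1: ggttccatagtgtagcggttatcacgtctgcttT

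The AAC-1-M2 fragments match both tRNA-Val-AAC-1-1 and tRNA-Val-CAC-2-1, which differ in their whole deposited length by A34C alone. Counts of AAC-1-M2 at 29, 31 and 32 nt therefore come from an AAC tRNA, a CAC tRNA or both, and the 2 can be told apart only at 34 nt. AAC-2-M3 likewise matches 3 tRNAs, tRNA-Val-AAC-2-1, tRNA-Val-AAC-3-1 and tRNA-Val-CAC-3-1. TAC-1, the only TAC member, differs from 34-nt AAC-1 at 7 bases. RefSeq (GRCm38.p6) lists 22 nuclear valine tRNA genes, 8 AAC, 11 CAC and 3 TAC. Of these, 10 lie on chromosome 13 and 3 on chromosome 3. The TAC genes n-TVtac1, n-TVtac2 and n-TVtac3 lie at chr19:12011931-12012003, chr19:12012266-12012338 and chrX:160766110-160766182. The table does not tie its tRNA names to these genes, so no fragment was given a locus.

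Libraries held 1204173 to 2155977 mapped reads. The listed fragments took 56.0% to 62.1% of them at day 3, 75.3% to 78.6% at day 7 and 75.7% to 76.0% in controls, so a value per mapped read and a share of the listed counts differ by group. The part of this difference in the results was not tested beyond the scalings given beside them. In a bulk complex, fewer cells of a type and less RNA per cell cannot be told apart. Whether each complex is from an animal of its own is not given in the labels; p-values thus reflect the spread among these 9 libraries alone, and that spread may be technical.

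Valine long 5′ fragments were more abundant at day 3 than in controls. Their summed level, in CPM (counts scaled to the mapped reads of the library), was 10990, 10593 and 11188 CPM in the 3 libraries of day 3, 5818, 6333 and 4262 CPM at day 7, and 5055, 7338 and 6120 CPM in controls. Every day 3 library lay above every control and every day 7 library, and the day 7 and control libraries overlapped. The ratio of group means was 1.77 for day 3 over control, 0.887 for day 7 over control and 0.501 for day 7 over day 3. As shares of the listed counts the sums were 1.77%, 1.82% and 2.00% at day 3, 0.773%, 0.806% and 0.552% at day 7, and 0.667%, 0.965% and 0.808% in controls. Sums over members were not tested. On the scale of listed counts the ratio of group means was 2.29 for day 3 over control and 0.382 for day 7 over day 3, with the same libraries apart.

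One sequence made up most of this level. The 32-nt AAC-1-M2 fragment was at 8549, 8776 and 8674 CPM at day 3, 3597, 4714 and 2846 CPM at day 7, and 3781, 4770 and 4170 CPM in controls. Its day 3 libraries lay close together and above all the others. Fragments named for AAC as a whole held 87.1% to 92.8% of the valine counts at day 3, 73.0% to 85.5% at day 7 and 78.2% to 86.9% in controls, but most of these reads are the sequence shared with a CAC tRNA. Where the anticodon base is read, at 34 nt, CAC-2 outnumbered AAC-1 in every library, by 5.44 to 8.33 times at day 3, 5.49 to 5.66 times at day 7 and 5.51 to 11.9 times in controls. The order of the 2 anticodons thus differed between the names at 32 nt and the bases read at 34 nt.

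**Figure D1:**
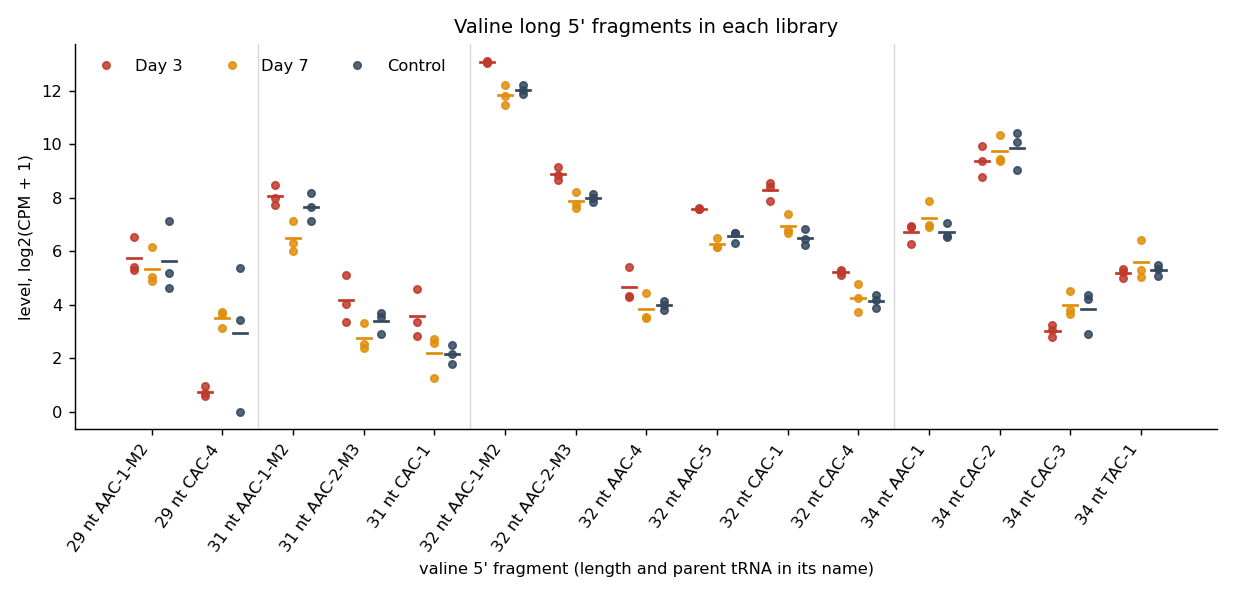
Level of each of the 15 valine long 5′ fragments as log2(CPM + 1) (vertical axis), ordered by length and parent; each point is a library, the short line is the mean of 3 libraries, and colours from left to right are day 3, day 7 and control. The 32-nt AAC-1-M2 fragment is the highest in every library, and all 6 fragments of 32 nt have their highest mean at day 3.

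At day 3 against control, 4 of the 6 fragments of 32 nt were higher and none of the 4 of 34 nt passed. In edgeR's quasi-likelihood test, 4 valine fragments were higher and 1 was lower at a Benjamini-Hochberg adjusted p below 0.05 over all 200 fragments, and 10 did not pass. Of all fragments 21.5% passed, 10% as higher and 11.5% as lower. The 4 higher fragments were all of 32 nt, where 6 of 6 log2 fold changes were above 0 under every scaling tried. They ran from 0.81 to 1.76 in the main fit and from 1.17 to 2.15 scaled to listed counts. The median log2 fold change of the 15 was 0.81, against -0.039 over all fragments. Of the 87 long 5′ fragments of other nuclear tRNAs, 11 were higher and 1 lower, with a median of 0.32. Among these, 7 of 21 fragments of 32 nt were higher and 0 lower, with a median of 0.53, and 0 of 12 of 34 nt were called, 3 having an unadjusted p below 0.05.

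The largest difference among the 32-nt fragments was in CAC-1. It was at 338, 234 and 374 CPM at day 3, 103, 165 and 110 CPM at day 7, and 73.6, 113 and 87.7 CPM in controls. All 3 day 3 libraries lay above the other 6. Its log2 fold change of day 3 over control was 1.76 ± 0.39 (SE), a 3.39-fold difference, with an edgeR adjusted p of 0.00402. It passed with each library left out in turn, at adjusted p between 0.00804 and 0.0271. The 31-nt CAC-1 fragment, with the highest log2 fold change of the 15, was at 22.9, 9.35 and 6.10 CPM at day 3, 4.98, 5.58 and 1.38 CPM at day 7, and 2.45, 3.43 and 4.64 CPM in controls. It rests on 10 to 46 counts at day 3 and 3 to 10 counts in controls, and its log2 fold change of day 3 over control was 1.82 ± 0.70 (edgeR adjusted p = 0.059). It passed in DESeq2 (adjusted p = 0.0303), scaled to listed counts (0.0286), with only the 2 groups compared (0.0465) and without day 3 replicate 3 (0.0301), and its log2 fold change was 1.04 (0.343) without day 3 replicate 1.

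The other 3 fragments of 32 nt that rose did so by about the same amount. AAC-1-M2, whose values are given above, had a log2 fold change of 1.00 ± 0.35 (edgeR adjusted p = 0.0474). AAC-5 was at 190, 192 and 194 CPM at day 3, 71.4, 90.4 and 70.3 CPM at day 7, and 78.5, 101 and 102 CPM in controls, with a log2 fold change of 1.01 ± 0.35 (edgeR adjusted p = 0.0444). CAC-4 was at 33.3, 38.3 and 36.6 CPM at day 3, 26.6, 17.9 and 12.4 CPM at day 7, and 13.9, 19.4 and 17.2 CPM in controls, with a log2 fold change of 1.07 ± 0.35 (edgeR adjusted p = 0.0313). In all 3 the day 3 and control libraries did not overlap. How many of all 200 fragments separate in this way was not counted. The smallest p that an exact permutation test of 3 against 3 libraries can give is 0.1. The calls of these 3 fragments rested on having all libraries. AAC-1-M2 and AAC-5 lost theirs without any 1 of the 6 libraries (adjusted p 0.0502 to 0.141 and 0.0548 to 0.154), and CAC-4 without any of 5, day 3 replicate 3 being the exception (0.0622 to 0.127). Their log2 fold changes in those fits stayed between 0.94 and 1.09. The call of CAC-4 was also lost when scaled to mapped reads without TMM factors (log2 fold change 1.09, edgeR adjusted p = 0.0655).

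The 2 remaining 32-nt fragments did not pass. AAC-2-M3 was at 562, 411 and 466 CPM at day 3, 196, 294 and 217 CPM at day 7, and 253, 283 and 226 CPM in controls, and its day 3 libraries lay above all others (log2 fold change 0.89 ± 0.38, edgeR adjusted p = 0.0847). AAC-4 was at 41.7, 18.7 and 18.9 CPM at day 3, 10.8, 20.7 and 10.3 CPM at day 7, and 13.1, 14.9 and 16.7 CPM in controls (log2 fold change 0.81 ± 0.46, edgeR adjusted p = 0.178). Its replicate 1 at day 3 stood well above the other day 3 libraries.

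None of the 4 fragments of 34 nt passed at day 3 in edgeR, where 1 had an unadjusted p below 0.05, or in DESeq2. The most abundant, CAC-2, was at 665, 437 and 986 CPM at day 3, 1318, 670 and 697 CPM at day 7, and 522, 1360 and 1101 CPM in controls, and the groups overlapped. Its log2 fold change of day 3 over control was -0.53 ± 0.41 (edgeR adjusted p = 0.331). AAC-1 was at 122, 77.2 and 118 CPM at day 3, 234, 118 and 127 CPM at day 7, and 94.8, 133 and 92.3 CPM in controls, with a log2 fold change of -0.033 ± 0.35 whose sign turned under 3 other scalings. TAC-1 was at 31.3, 39.8 and 36.6 CPM at day 3, 85.5, 38.5 and 31.7 CPM at day 7, and 32.7, 43.4 and 39.9 CPM in controls, with a log2 fold change of -0.14 ± 0.33 that turned to 0.26 when scaled to the listed counts. For both, the difference between day 3 and control was smaller than its SE. CAC-3 was the rarest, at 5.96, 8.42 and 7.32 CPM at day 3, 21.6, 11.7 and 13.1 CPM at day 7, and 6.54, 19.4 and 17.6 CPM in controls (log2 fold change -1.03 ± 0.49, edgeR adjusted p = 0.108).

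The length make-up of the valine fragments differed at day 3. The 32-nt fragments held 88.4%, 91.3% and 87.3% of the valine counts at day 3, 68.8%, 83.7% and 76.7% at day 7, and 83.3%, 72.2% and 75.5% in controls. The 34-nt fragments held 7.51%, 5.31% and 10.3% at day 3, 28.5%, 13.2% and 20.4% at day 7, and 13.0%, 21.2% and 20.4% in controls. At day 3 all 3 libraries had less of the 34-nt fragments than any other library, and day 7 overlapped with control. The 95% Wilson intervals of these shares, which cover counting error only, reached at most 1.08 percentage points to either side. The summed 34-nt level in CPM overlapped between all 3 groups, at 562 to 1149 CPM at day 3, 838 to 1659 CPM at day 7 and 656 to 1556 CPM in controls.

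**Figure D2:**
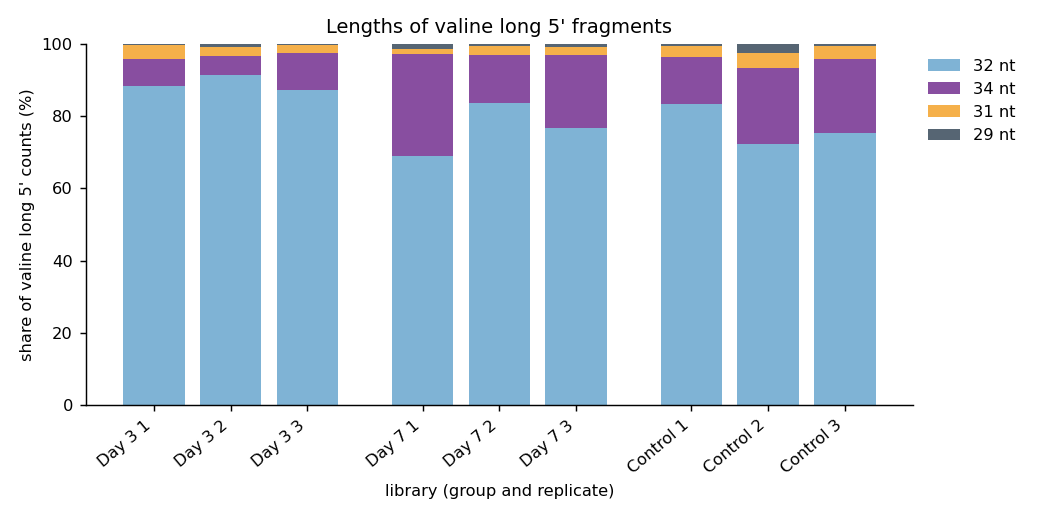
Share of the valine long 5′ counts of each library (vertical axis, percent) by fragment length, for the 3 libraries of day 3, day 7 and control. The 34-nt share is 5.31% to 10.3% at day 3, below the 13.0% to 28.5% of the other 6 libraries.

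The counts at 34 nt were 8.49%, 5.81% and 11.8% of those at 32 nt at day 3, 41.4%, 15.8% and 26.6% at day 7, and 15.6%, 29.3% and 27.1% in controls. Of the 7 amino acid families with fragments of both lengths, valine and lysine had every day 3 library below every control. For lysine the values were 57.5%, 31.8% and 81.9% at day 3, 281%, 139% and 143% at day 7, and 175%, 342% and 314% in controls. The other 5 families, alanine, aspartate, glutamate, glycine and histidine, overlapped between day 3 and control. Whether valine differed from them was not tested.

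A test that does not depend on how libraries are scaled took, in each library, the log2 odds of a fragment's counts against the other valine long 5′ counts, and compared groups with limma over the 99 long 5′ fragments that could be set against a family. At day 3 against control, 1 of the 15 valine fragments took a larger part of the family and 2 a smaller part, against 21.2% of all fragments called (16.2% higher and 5.05% lower). The larger part was that of 32-nt CAC-1, with a log2 odds difference of 0.96 ± 0.31 (limma adjusted p = 0.0419). The smaller parts were those of 34-nt CAC-3 (-1.70 ± 0.38, limma adjusted p = 0.0136) and 34-nt CAC-2 (-1.47 ± 0.44, limma adjusted p = 0.0282). The other 34-nt fragments, TAC-1 (-0.95, limma adjusted p = 0.0733) and AAC-1 (-0.87, limma adjusted p = 0.102), were below 0 and did not pass. CAC-3 passed with every library left out. CAC-2 lost its call without control replicate 2 or 3 or day 3 replicate 1 or 2 (limma adjusted p 0.0779 to 0.123), and CAC-1 without any library but day 3 replicate 2 (0.104 to 0.142). Parts of a whole are not independent, since a larger share of 1 fragment lowers the others.

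**Figure D3:**
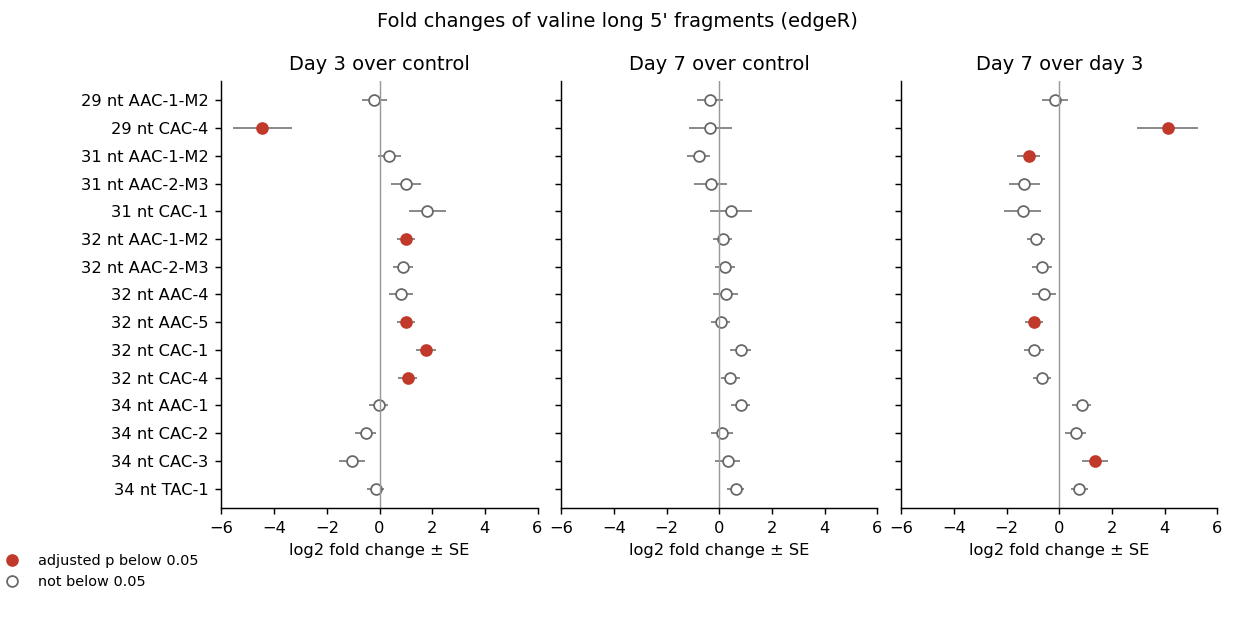
Log2 fold change (horizontal axis, ± SE) of each valine long 5′ fragment for day 3 over control, day 7 over control and day 7 over day 3, from edgeR; filled points have an adjusted p below 0.05. At day 3 over control the 6 fragments of 32 nt lie between 0.81 and 1.76 and the 4 of 34 nt between -1.03 and -0.033; no point is filled for day 7 over control.

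The 5 rarer sequences of 32 nt were then set against AAC-1-M2 of the same library, which also needs no scaling. CAC-1 was at 3.96%, 2.67% and 4.31% of AAC-1-M2 at day 3, 2.86%, 3.50% and 3.88% at day 7, and 1.95%, 2.37% and 2.10% in controls. Every library after laser, at either day, lay above every control. AAC-5 was at 2.22%, 2.18% and 2.24% at day 3, 1.99%, 1.92% and 2.47% at day 7, and 2.08%, 2.11% and 2.45% in controls, so the groups overlapped and the ratio stayed close to constant. The ratio of AAC-2-M3 was 4.68% to 6.57% at day 3, 5.45% to 7.63% at day 7 and 5.42% to 6.70% in controls. CAC-4 was at 0.389% to 0.437% at day 3, 0.379% to 0.739% at day 7 and 0.368% to 0.412% in controls, and AAC-4 at 0.213% to 0.488% at day 3, 0.3% to 0.438% at day 7 and 0.312% to 0.4% in controls. Apart from CAC-1, the rarer 32-nt sequences thus overlapped between groups in their ratio to AAC-1-M2. CAC-1, AAC-5 and CAC-4 are each 1 base from it, and whether misread bases add to their counts was not tested.

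**Figure D4:**
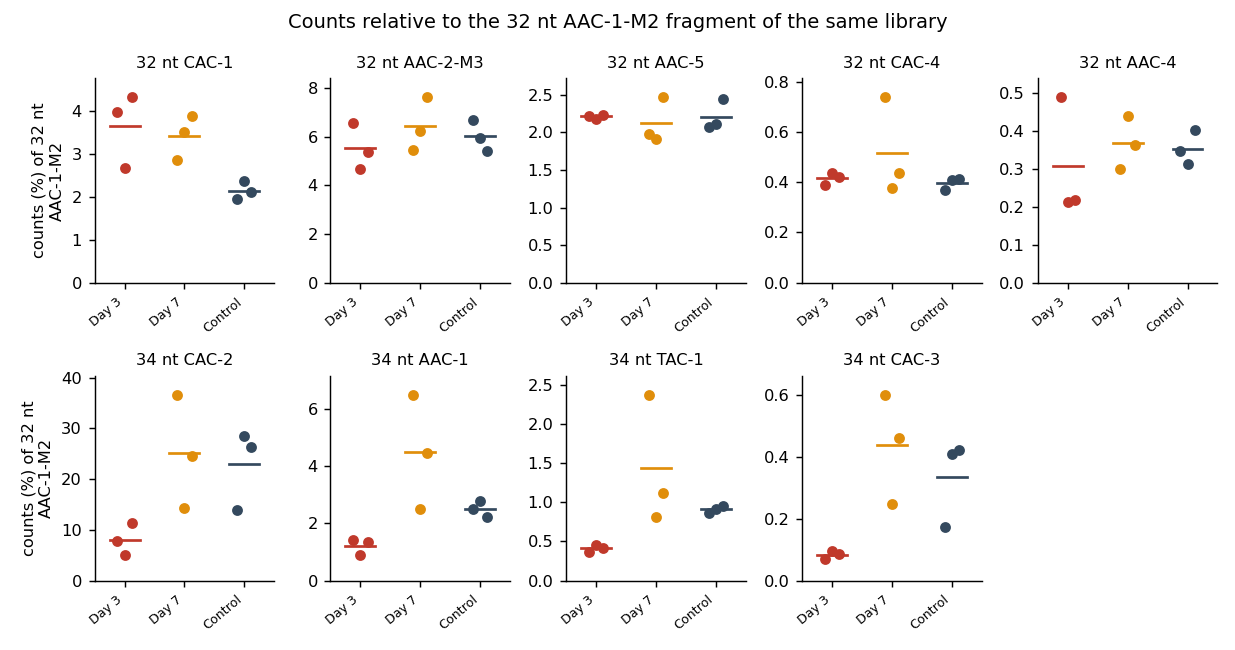
Counts of 9 valine fragments as a percentage of the counts of 32-nt AAC-1-M2 in the same library (vertical axes, each from 0); points are libraries, lines are means of 3, and groups from left to right are day 3, day 7 and control. CAC-1 at 32 nt is higher in all 6 libraries after laser, 2.67% to 4.31%, than in controls, 1.95% to 2.37%; the 4 fragments of 34 nt are lowest at day 3.

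Among the shorter fragments, 29-nt CAC-4 was the only 1 called at day 3, as lower, though its libraries overlapped with the controls. It had 1, 2 and 1 counts at day 3, 14, 14 and 18 counts at day 7, and 12, 71 and 0 counts in controls. The day 3 libraries were at or below the 3 counts that set the detection floor (1.39 to 2.49 CPM), and 1 control library lay below them. The fitted log2 fold change was -4.45 ± 1.12 (edgeR adjusted p = 0.0077), and the ratio of summed counts per mapped read was 0.0427 (exact 95% interval 0.0114 to 0.113, counting error only). Control replicate 2 carried most of the control counts: without it the log2 fold change was -2.69 with an adjusted p of 0.102, and the ratio of counts was 0.195 (0.0457 to 0.642). The fragment was tested in the fit of all 9 libraries, where day 7 counts also enter the filter for low counts. With only the 2 groups compared, that filter kept 197 fragments, and 29-nt CAC-4 was not among them. The valine calls were then 5 higher and 0 lower, against 29 higher and 38 lower over all 197 fragments. The 29-nt AAC-1-M2 fragment, of the sequence shared with the 32-nt form, was at 38.8, 90.7 and 41.5 CPM at day 3, 69.8, 31.8 and 28.3 CPM at day 7, and 23.7, 138 and 35.3 CPM in controls. Its log2 fold change of day 3 over control was -0.19 ± 0.48 and turned to 0.83 without control replicate 2, the highest library for both 29-nt fragments. The 31-nt fragments did not pass at day 3, with log2 fold changes of 0.38 for AAC-1-M2, 1.01 for AAC-2-M3 and 1.82 for CAC-1. Without day 3 replicate 1 these were 0.091, 0.27 and 1.04.

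Summed over lengths by parent and fitted over the 39 parents with long 5′ fragments, 2 of the 10 valine parents passed at day 3, against 20.5% of all parents (2.56% higher and 17.9% lower). In that fit Val-CAC-1 was the only parent of any tRNA called higher, at 361, 244 and 380 CPM at day 3, 108, 171 and 112 CPM at day 7, and 76.0, 117 and 92.3 CPM in controls (log2 fold change 1.52 ± 0.31, edgeR adjusted p = 0.000452). It kept its call under every alternative fit, at adjusted p up to 0.0161. Val-CAC-3, which is its single 34-nt fragment, was lower (log2 fold change -1.30 ± 0.42, edgeR adjusted p = 0.0238). That call was lost without control replicate 2 or 3 or day 3 replicate 3 (adjusted p 0.0701 to 0.2), without TMM factors (0.0756) and scaled to listed counts (log2 fold change -0.67, adjusted p 0.244). The same counts did not pass in the fit of fragments (edgeR adjusted p = 0.108), and the day 3 and control libraries of Val-CAC-3 overlapped. The number of valine parents called ran from 1 without control replicate 2 or 3 to 5 without day 3 replicate 2. By scaling, 2 were higher and 1 lower with RLE factors, 3 and 1 with DESeq2, 4 and 0 without TMM factors, and 5 and 0 scaled to listed counts.

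At day 7 against control no valine fragment passed. In edgeR 0 of 15 did, 1 had an unadjusted p below 0.05 and DESeq2 called 0, while 4% of all fragments passed (3.5% higher and 0.5% lower). The log2 fold changes ran from -0.79 ± 0.43 for 31-nt AAC-1-M2 to 0.81 ± 0.35 for 34-nt AAC-1, the fragment with the smallest unadjusted p of 0.0325 (adjusted p = 0.203). The 31-nt AAC-1-M2 fragment was at 63.1, 138 and 79.3 CPM at day 7 and 139, 288 and 203 CPM in controls, all day 7 libraries being below all controls. The 32-nt CAC-1 fragment had a log2 fold change of 0.80 ± 0.39 (edgeR adjusted p = 0.256), and 32-nt AAC-1-M2 of 0.12 ± 0.35, which was below 0 under 4 other scalings. The median of the 15 was 0.22, against 0.094 over all fragments. None of the 10 parents passed, none at an unadjusted p below 0.05 and none in DESeq2, against 7.69% of all parents (2.56% higher and 5.13% lower), though 1 did without control replicate 2 and 1 without day 7 replicate 1. No valine fragment changed its part of the family in limma, 1 having an unadjusted p below 0.05, against 9.09% of all (7.07% higher and 2.02% lower). At 31 nt the ratio to the 32-nt counts was 1.80%, 2.88% and 2.62% at day 7 and 3.61%, 5.73% and 4.64% in controls, which did not overlap.

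Between day 7 and day 3 the 32-nt and 34-nt fragments lay on opposite sides of 0. By edgeR 2 valine fragments were higher at day 7 and 2 lower, against 34.5% of all fragments (23% higher and 11.5% lower). This split depended on the scaling, being 1 higher and 5 lower with RLE factors, 1 and 6 without TMM factors and with DESeq2, and 1 and 9 scaled to listed counts. Over all 200 fragments the split also moved toward lower, from 46 higher and 23 lower. It was 37 and 35 with RLE factors and 30 and 39 without TMM factors. DESeq2 gave 35 and 39, and scaling to listed counts 9 and 63. The 6 fragments of 32 nt had log2 fold changes of day 7 over day 3 from -0.96 to -0.57, and the 4 of 34 nt from 0.62 to 1.35, where CAC-2 turned to -0.031 when scaled to the listed counts. The median of the 15 was -0.66, against 0.15 over all fragments. The day 3 libraries are shared with the comparison of day 3 with control, so the 2 are not independent.

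Higher at day 7 were 34-nt CAC-3 (log2 fold change 1.35 ± 0.50, edgeR adjusted p = 0.0391) and 29-nt CAC-4 (4.11 ± 1.15, edgeR adjusted p = 0.0124), whose summed counts per mapped read were 15.0 times those of day 3 (exact 95% interval 5.47 to 57.3, counting error only). All day 7 libraries lay above all day 3 libraries for both. Lower were 32-nt AAC-5 (-0.96 ± 0.35, edgeR adjusted p = 0.0377) and 31-nt AAC-1-M2 (-1.17 ± 0.43, edgeR adjusted p = 0.039), the second at 63.1, 138 and 79.3 CPM at day 7 against 356, 251 and 212 CPM at day 3. For both, all day 7 libraries lay below all day 3 libraries. Only 29-nt CAC-4 passed with each library left out, at adjusted p up to 0.0477. It had 1, 2 and 1 counts at day 3, below the detection floor. Of the 2 groups compared, only day 7, where it is high, brings it past the filter for low counts. The call of CAC-3 was lost without any 1 of the 6 libraries (0.0567 to 0.111), with only the 2 groups compared (0.0741) and under every other scaling tried, at 0.0701 with DESeq2 to 0.373 scaled to listed counts, where its log2 fold change was 0.69. The call of AAC-5 was lost without any day 3 library or day 7 replicate 1 (0.0567 to 0.117). That of 31-nt AAC-1-M2 was lost without day 3 replicate 1 or 2 or day 7 replicate 1 or 3 (0.0585 to 0.159). Just short of the threshold with TMM factors were 32-nt AAC-1-M2 (-0.89 ± 0.35, edgeR adjusted p = 0.0531) and 32-nt CAC-1 (-0.96 ± 0.38, edgeR adjusted p = 0.054). Both passed as lower under every other scaling tried, at adjusted p of 0.000348 to 0.0262 for AAC-1-M2 and 0.0015 to 0.0262 for CAC-1. With a library left out, both passed only without day 7 replicate 2 (edgeR adjusted p 0.0302 and 0.0359). Neither passed with a replicate block (0.0703 and 0.0557) or with only the 2 groups compared (0.0516 and 0.0533).

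Within the family, all 4 fragments of 34 nt took a larger part at day 7 than at day 3, as did 29-nt CAC-4; these 5 higher and 0 lower calls stand against 23.2% of all fragments (10.1% higher and 13.1% lower). The log2 odds difference was 2.06 ± 0.38 for CAC-3 (limma adjusted p = 0.00564), 1.60 ± 0.35 for AAC-1 (limma adjusted p = 0.013), 1.55 ± 0.44 for CAC-2 and 1.43 ± 0.35 for TAC-1 (limma adjusted p = 0.0186). CAC-3 and AAC-1 passed with each library left out, at adjusted p up to 0.0434. TAC-1 lost its call without day 3 replicate 1 (0.0561) and CAC-2 without day 3 replicate 1 or 2 or day 7 replicate 1 or 3 (0.0581 to 0.125). For 29-nt CAC-4 the difference was 4.56, and among the fits with a library left out its call held only without day 7 replicate 2 (limma adjusted p in the others 0.0664 to 0.125). All 3 anticodons were thus among the 34-nt fragments whose part was larger at day 7. These parts are not separate evidence for each anticodon, since they share a whole that is mostly 32-nt AAC-1-M2. All day 7 libraries of that fragment lay below all its day 3 libraries. In CPM, 34-nt CAC-2, AAC-1 and TAC-1 overlapped between day 7 and day 3.

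By parent, 6 of the 10 valine parent names passed between day 7 and day 3, against 41% of all parents (17.9% higher and 23.1% lower). These names are not separate tRNAs. The tRNA tRNA-Val-AAC-1-1 falls under both Val-AAC-1 and Val-AAC-1-M2, and tRNA-Val-CAC-3-1 under both Val-CAC-3 and Val-AAC-2-M3. Val-AAC-1 (log2 fold change 0.83 ± 0.30, edgeR adjusted p = 0.027) and Val-CAC-3 (1.34 ± 0.42, edgeR adjusted p = 0.0107), which are each a single 34-nt fragment, were higher at day 7. Both calls were lost without TMM factors (0.16 for AAC-1 and 0.0677 for CAC-3), scaled to listed counts (log2 fold changes 0.21 and 0.68) and without day 7 replicate 1, and that of AAC-1 also without day 3 replicate 2 (0.113). The libraries of AAC-1 overlapped between the days, and the same counts did not pass in the fit of fragments (edgeR adjusted p = 0.0651). Val-AAC-1-M2, Val-AAC-2-M3, Val-AAC-5 and Val-CAC-1, made of fragments up to 32 nt, were lower, with log2 fold changes of -0.94, -0.76, -1.02 and -1.05 and edgeR adjusted p of 0.0118, 0.0455, 0.00542 and 0.00578. Day 7 replicate 1, the library with the largest 34-nt share, had the largest effect on this count: without it 0 of the 10 parents passed. The split of 2 higher and 4 lower became 0 and 4 without TMM factors, 0 and 5 scaled to listed counts, 3 and 0 with only the 2 groups compared and 4 and 0 without day 3 replicate 3.

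The profile of 32-nt AAC-1-M2 over the 9 libraries was compared with that of 182 fragments of other tRNAs by the root mean square difference of log2(CPM + 1) centred on each fragment's mean, whose median was 0.789. The most alike was tRF-1:30-Lys-CTT-3 (0.178), at 240 to 299 CPM at day 3, 106 to 121 CPM at day 7 and 105 to 147 CPM in controls. The next were tRF-1:32-Ala-CGC-5 (0.360), tRF-1:32-Glu-TTC-3 (0.365), tRF-1:31-Lys-CTT-3 (0.378) and tRF-1:32-Lys-CTT-3 (0.421). The other 5 valine fragments of 32 nt had differences between 0.116 for AAC-5 and 0.393 for CAC-1. The 34-nt fragments were farther, at 0.783 to 1.06, and 29-nt CAC-4 farthest of the valine members at 2.17.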

How the data were processed

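Per the labels, RNA was deacylated, freed of 3′ cyclic phosphates, phosphorylated at 5′ ends and demethylated before adapter ligation, and libraries of about 134 to 160 bp were cut from a gel, which limits the lengths seen. The submitters' processing notes name FastQC, Bowtie, edgeR and mm10 without versions. Per the file headers, the authors deposited raw counts and CPM (counts scaled to mapped reads) for each fragment and library. Columns headed NC were read as the controls, being the only ones not named for a day after laser. Counts divided by CPM gave the mapped total, which exceeds the listed counts. The 200 listed fragments each reached at least 20.1 CPM in some library, and 7 lines were empty and not used here. Reads matching several tRNAs cannot be assigned to 1 gene, and base errors were not corrected.

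Fragments were compared by edgeR 4.0.16 under R 4.3.3 (mapped totals as library sizes, TMM factors of 0.749 to 1.14, filterByExpr, which removed 0 fragments, quasi-likelihood F tests, all 9 libraries, two-sided, Benjamini-Hochberg over 200 fragments, threshold 0.05). Counts per parent were fitted in the same way over 39 parents (TMM factors of 0.821 to 1.20). Log2 odds within a family (0.5 added to counts) were tested with limma 3.58.1 over 99 fragments; this test was added after the data were seen. The common coefficient of variation was 34.9%. No replicate pair agreed within sampling noise (chi-square per degree of freedom at least 20.6). Values per library were given for members called in any comparison, the most abundant of each anticodon and parent, and the extremes of each comparison. The alternatives included DESeq2 1.42.0, other scalings and filters, a replicate block and each library left out. The code was tested on simulated data. The members and lists were chosen with earlier results of these data known.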

Additional observations from a re-analysis of the deposited data

Results flagged for a closer look

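The test of day 7 against day 3 is also the test of whether the effects at the 2 times, set against the shared controls, differ. It called 4 of the 15 valine fragments, against 34.5% of all 200 fragments. As given above, the calls of 34-nt CAC-3, 32-nt AAC-5 and 31-nt AAC-1-M2 were each lost in fits with a library left out. For 34-nt CAC-3 the log2 fold change of day 7 over day 3 was 1.35, the values over control being 0.32 at day 7 and -1.03 at day 3. For 29-nt CAC-4 it was 4.11, with -0.34 at day 7 and -4.45 at day 3 over control, on 4 counts in all at day 3. The direction at day 7 over control rested on control replicate 2. The ratio of summed counts per mapped read was 0.639 (exact 95% interval 0.436 to 0.928, counting error only). Without that library it was 2.91 (1.52 to 6.04). For 32-nt AAC-5 the log2 fold change of day 7 over day 3 was -0.96, with 0.04 at day 7 and 1.01 at day 3 over control. For 31-nt AAC-1-M2 it was -1.17, with -0.79 at day 7 and 0.38 at day 3 over control. The cause of these differences was not tested.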

How the results depend on the processing

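At day 3 against control, the 5 valine fragments called became 3 with a mean of at least 100 CPM and 1 to 4 with a library left out. The 2 parents became 4 without TMM, 5 scaled to listed counts, 4 with DESeq2, 4 with only the 2 groups compared, 5 with TMM factors of the fragment table (chosen after seeing the data) and 1 to 5 with a library left out. The 3 called by share of the family became 1 to 2 with a library left out. At day 7 against control, 0 fragments were called throughout, and 0 to 1 parents with a library left out. Between day 7 and day 3, the 4 fragments became 7 without TMM, 10 scaled to listed counts, 7 with DESeq2 and 1 to 5 with a library left out. The 6 parents became 3 with only the 2 groups compared and 0 to 7 with a library left out, and the 5 called by share 2 to 6. Scaled to listed counts, the log2 fold change of a fragment shifted by a median over all fragments of 0.40 at day 3 and -0.28 at day 7 against control, and of -0.68 between the days, and calls over the table split 49 higher to 14 lower at day 3 and 9 to 63 between the days. The summed level then gave 2.29 for day 3 over control, against 1.77, and 0.382 for day 7 over day 3, against 0.501. The cause of these moves was not tested.

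Signs turned in the following values, none of which passed. At day 3, 34-nt TAC-1 was 0.26 scaled to listed counts, and 29-nt AAC-1-M2 was 0.17 scaled to listed counts, 0.83 without control replicate 2 and 0.0077 without day 3 replicate 3 (-0.69 to 0.83 with any library left out). At day 3, 34-nt AAC-1 was 0.041 with RLE factors, 0.36 scaled to listed counts, 0.041 with DESeq2, 0.017 with a mean of at least 100 CPM and 0.16 without day 3 replicate 2. At day 7 against control, 32-nt AAC-1-M2 was -0.011 with RLE factors, -0.19 without TMM, -0.21 scaled to listed counts, -0.011 with DESeq2 and -0.20 without day 7 replicate 2 (to 0.30 with another library left out). Between the days, 34-nt CAC-2 was -0.031 scaled to listed counts.

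Sharing a replicate number did not tie libraries together: after group means were removed, r was over 0.1 in 2 of 9 such pairs, and 3 of 9 libraries were most like one of their own number. With the replicate block, 4 fragments, 2 parents and 2 shares were called at day 3 against control, and 4, 6 and 5 between the days. At day 3 it ended the call of 32-nt AAC-1-M2 (1.01, edgeR adjusted p = 0.0639) and the share call of 32-nt CAC-1 (limma adjusted p = 0.0696). Depth limits CAC-4 at 29 nt most, with 4 counts over the 3 libraries of day 3.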

Other observations

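The table held 3 other nuclear valine fragments, of other classes. The 23-nt 5′ fragment tRF-1:23-Val-AAC-1-M4 was at 212 to 411 CPM at day 3, 204 to 575 CPM at day 7 and 289 to 462 CPM in controls, with overlap throughout. The 15-nt fragment tRF-1:15-Val-TAC-1 was at 8.89 to 21.4 CPM at day 3, 6.21 to 15.8 CPM at day 7 and 11.4 to 13.9 CPM in controls. The 22-nt 3′ fragment tRF-55:76-Val-TAC-1, which ends at the mature 3′ end, was at 6.46, 7.48 and 14.0 CPM at day 3, 16.6, 12.8 and 13.1 CPM at day 7, and 18.8, 24 and 17.6 CPM in controls. Its libraries of both days lay below all controls, and day 3 over control gave -1.16 ± 0.45 on the log2 scale (edgeR adjusted p = 0.059). None of the 3 passed in any comparison by edgeR.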
